A study of Microtus ochrogaster with 23 samples.

Results

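The genome assembly of the prairie vole (Microtus ochrogaster), MicOch1.0, consists of numbered chromosomes, linkage groups, chromosome X, large scaffolds whose names start with JH, and many short contigs whose names start with AHZW and which have no place on any chromosome. The cytosines on the AHZW contigs are described here. DNA methylation was measured by reduced representation bisulfite sequencing (RRBS) in punches of the dentate gyrus (DG) of adult wild-type voles, with 1 library from each of 23 animals. “Attacker” (6 animals) and “Parental” (6) were sexually naïve males that attacked a pup or cared for it, “Father” (5) were males that had been housed with their mate and litter, and “Mother” (6) were females with a litter. All animals had been exposed to a pup in a behavioral test before the tissue was taken, and the virgin males were assigned to their group by what they did in that test. “Mother” was the female group, so that sex and parental role cannot be told apart in its comparison, and a DG punch holds all cell types of the tissue. A cytosine of a CpG was included where 4 or more animals of every group had 10 or more reads there. Of 9060 AHZW cytosines read in any animal, 1637 (18.1%) met this rule, on 163 of 1206 AHZW contigs with reads. On the numbered chromosomes, 600238 of 2234646 cytosines (26.9%) met it, and in the whole series 1075736 of 4051749 (26.5%).

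Cytosine methylation in mammals sits mainly at CpGs. Most CpGs of the genome stand far apart and are methylated, whereas CpGs packed into islands, many of them at the starts of genes, are usually unmethylated. RRBS cuts DNA at CCGG sites with the enzyme MspI and reads short fragments, which enriches for CpG-dense DNA, and a fragment is read from its cut ends, so that neighbouring CpGs share their reads. Bisulfite converts unmethylated cytosines, and the methylation level is the share of reads at a cytosine that stayed unconverted. Unplaced contigs are pieces that an assembler could not join to a chromosome. In mammalian assemblies they are known to hold many repeats and sequences present in several copies, and reads from copies that are missing in the assembly can pile up on the copy that is present.

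The number of calls per library, that is of reads summed over cytosines, ranged from 64896224 to 129376223, of which 114322 to 201224 fell on the 1637 contig cytosines. A library had at least 10 reads at 1439 to 1607 of them. The contig cytosines lay on pieces whose last cytosine with reads stood at position 1170 in the median (range 39 to 23637). A contig held 4 of the covered cytosines in the median and at most 89. The 42 contigs with at least 10 covered cytosines held 77.2% of them, and 40 contigs held a single covered cytosine. Close to the rule, 520 contig cytosines had the required reads in exactly 4 animals of their least covered group and a mean level of 32.6%. In contrast, 455 cytosines that missed the rule by 1 animal had a mean level of 48.4%.

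Contig cytosines were more methylated than cytosines of the numbered chromosomes in 23 of 23 animals. The mean level on contigs was 20.6%, 25.3% and 29.3% (lowest, median and highest animal) in “Attacker”, and 22.4%, 25.4% and 26.4% in “Parental”. In “Father” the levels were 22.6%, 24.1% and 26.8%, and in “Mother” 22.3%, 23.6% and 24.7%. The groups overlapped in these levels, and on the numbered chromosomes no animal exceeded 9.9%, well under the lowest contig level. The difference between contigs and numbered chromosomes within an animal was 17.2 ± 1.41 percentage points (SD, n = 23; permutation test by sign flips, two-sided, p = 1.00e-05, the smallest value that 100000 resamples can give). It was 17.8 ± 2.14 points in “Attacker” (n = 6), 17.6 ± 1.14 in “Parental” (n = 6), 17 ± 1.13 in “Father” (n = 5) and 16.5 ± 0.787 in “Mother” (n = 6). Against the JH scaffolds, which are also unplaced but longer, the contig level was higher by 16 ± 1.4 points, and against the linkage groups by 16.6 ± 1.37 points, again in 23 of 23 animals (permutation tests, both p = 1.00e-05).

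**Figure D1:**
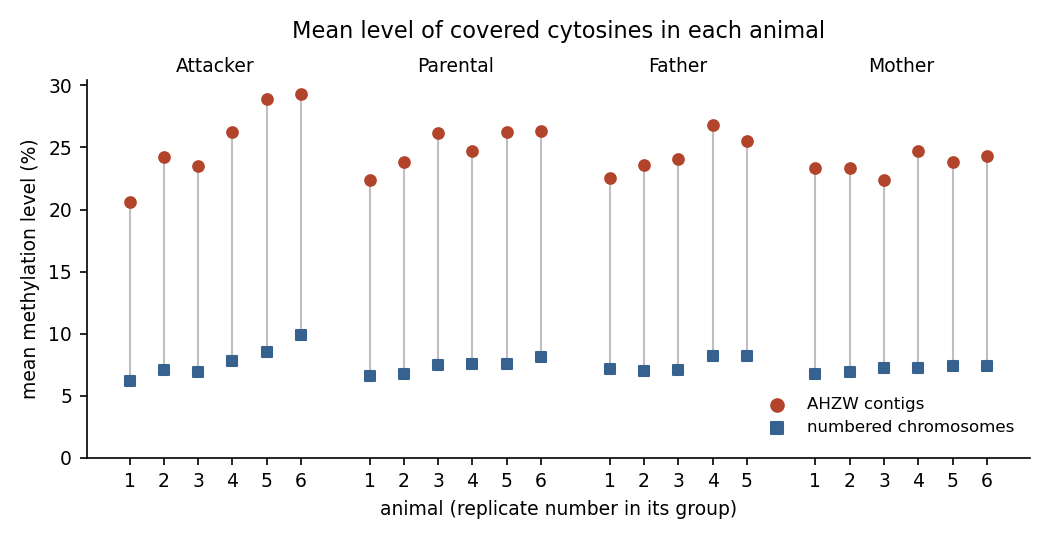
Mean methylation level (%) of the covered cytosines on AHZW contigs (circles) and on numbered chromosomes (squares) in each of the 23 animals, by group. The circles sit between 20.6% and 29.3% and the squares between 6.19% and 9.9%, with no overlap.

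Both classes of methylated cytosines were more frequent on contigs. Averaged over all animals, 1093 contig cytosines (66.8%) had a level under 20%, 269 (16.4%) lay at 20 to 80%, and 275 (16.8%) were over 80%. On the numbered chromosomes these classes took 89.2%, 7.67% and 3.08%. Within an animal, the share under 20% was lower on contigs by 21.3 points in the mean (contig minus numbered -21.3 ± 1.56), the share at 20 to 80% was higher by 8.21 ± 0.89 points, and the share over 80% by 13.1 ± 1.34 points (SD, n = 23; permutation tests, p = 1.00e-05 each). All 23 animals had these directions. In another weighting, each contig and each 5000 bp window of the numbered chromosomes counted once, whatever its number of cytosines. The difference in mean level was then 13 ± 1.15 points and that in the share at 20 to 80% was 2.38 ± 2.08 points (permutation test, p = 4.00e-05). The excess at 20 to 80% was thus smaller under this weighting, which changed both sides of the comparison.

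Because isolated CpGs are usually methylated and crowded ones are not, the level was compared at like numbers of neighbours. A neighbour is another covered cytosine within 50 bp, on either strand. Contig cytosines had fewer of them: 32% of contig cytosines and 45.3% of those on numbered chromosomes had 11 or more. Cytosines with 0 or 1 neighbour had a level of 49.4% ± 3.3 on contigs and 33.2% ± 2.76 on numbered chromosomes (SD over 23 animals). With 2 or 3 neighbours the levels were 45.2% ± 3.06 and 19.3% ± 1.79, and with 4 to 6 neighbours 30.5% ± 2.62 and 7.34% ± 0.708. With 7 to 10 neighbours they were 19.7% ± 1.76 and 2.88% ± 0.247. Among cytosines with 11 or more neighbours, contigs reached only 3.3% ± 0.611 and numbered chromosomes 1.07% ± 0.0644. The contig level was the higher in every bin and in 23 of 23 animals (permutation tests, p = 1.00e-05 each), by 25.9 ± 2 points at 2 or 3 neighbours and by 2.24 ± 0.579 points at 11 or more. When the numbered chromosomes were weighted to the neighbours of the contig cytosines, the difference over all bins was 14.5 ± 0.995 points. The base composition of the contigs was not used here.

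**Figure D2:**
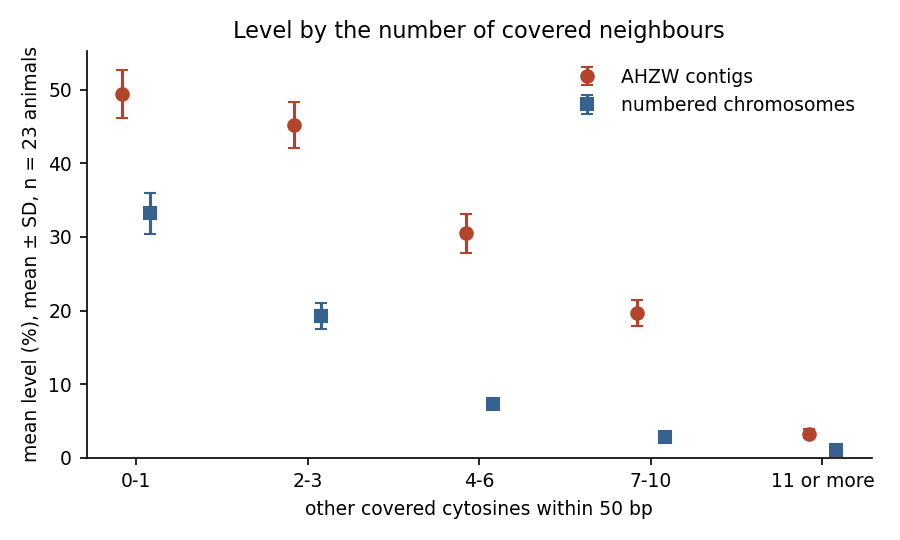
Mean methylation level (%) of covered cytosines by the number of other covered cytosines within 50 bp, for AHZW contigs (circles) and numbered chromosomes (squares), as mean ± SD over 23 animals. Both fall as neighbours become more frequent, from 49.4% to 3.3% on contigs and from 33.2% to 1.07% on numbered chromosomes.

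Depth is described without a test, because the coverage rule that chose the cytosines uses it. Among all cytosines read in any animal, those on contigs met the rule less often than those on numbered chromosomes (18.1% against 26.9%). In 60.5% of them, against 50%, some group had no animal with 10 reads, and the median depth of these was 0.739 and 0.957 reads. Among the cytosines that met the rule, those on contigs had the higher depth. The median depth of a contig cytosine was 37, 49 and 68 reads (lowest, median and highest animal) in “Attacker”, and 48, 57 and 70 in “Parental”. It was 45, 57 and 86 reads in “Father” and 42, 51.5 and 65 in “Mother”. The numbered chromosomes had medians of 25 to 65 reads in “Attacker”, 34 to 54 in “Parental”, 33 to 78 in “Father” and 34 to 54 in “Mother”. The animals of all groups overlapped in both, but within an animal the contigs were the deeper in 22 of 23, with a tie at 54 reads in “Mother” 2. The log2 ratio of the medians was 0.286 ± 0.152 (SD, n = 23), with animals between 0 and 0.566. This ratio depended on the coverage rule, since a looser rule of 5 reads in 3 animals of every group gave 0.0542 ± 0.168. It was 0.133 when the reads of both strands of a CpG were summed, and 0.576 for means in place of medians. With each contig and each 5000 bp window of the numbered chromosomes counted once, it was 0.165.

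**Figure D3:**
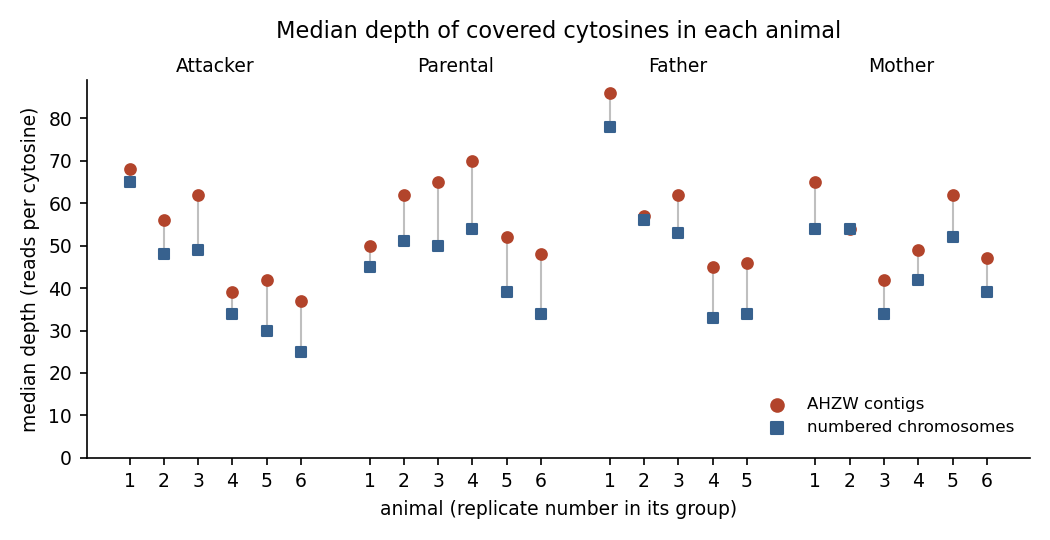
Median depth (reads per cytosine) of the covered cytosines on AHZW contigs (circles) and on numbered chromosomes (squares) in each of the 23 animals, by group. The circle is above the square in 22 animals, and the symbols coincide at 54 reads in “Mother” 2.

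The difference in depth among cytosines that met the rule was unevenly spread. At cytosines under 20% methylated, the median depth was 57 reads on contigs and 49 on numbered chromosomes (median animal), a log2 ratio of 0.22 ± 0.0889. At cytosines of 20 to 80%, it was 66 against 38 reads, a log2 ratio of 0.746 ± 0.209, and at cytosines over 80% it was 48 against 35 reads, a log2 ratio of 0.527 ± 0.171 (SD, n = 23). Intermediate contig cytosines that met the rule thus had 1.68 times the depth of those on numbered chromosomes. The upper tail was heavier too: 435 contig cytosines (26.6%) had more than 2 times the median depth of the numbered chromosomes (47.4 reads, averaged over animals), against 9.01% there. More than 5 times that median was found at 68 contig cytosines (4.15%) and at 0.963% of the cytosines on numbered chromosomes, and more than 10 times at 11 (0.672%) and 0.288%. Without the deepest 1% of cytosines the difference in level was 17.1 points. In bins of equal depth, the contig level was higher by 19.8 ± 4.24 points under 30 reads, by 17 ± 1.57 at 30 to 60 reads, by 16.7 ± 1.32 at 60 to 120 and by 14.7 ± 1.7 at 120 or more.

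The contigs themselves spread over all levels. Of the 163 contigs, 57 had a mean level under 20%, 61 lay at 20 to 80% and 45 were over 80%. Cytosines of a contig resembled each other: 87% of the variance of the level over cytosines lay between contigs, compared with 83.6% between 5000 bp windows of the numbered chromosomes. This is a description, as neighbouring cytosines share reads. Nevertheless, 29 contigs (23.6% of those with at least 2 covered cytosines) held cytosines more than 50 points apart. Among the 42 contigs with at least 10 covered cytosines, 28 had a mean level under 20%, and on 21 of these 42 contigs every cytosine was under 20%. A further 8 lay at 20 to 80% and 6 were over 80%. Contigs under 20% held 9 covered cytosines in the median, those at 20 to 80% held 3 and those over 80% held 2. Their median depths were 60.3, 57.9 and 40.2 reads in the same order.

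**Figure D4:**
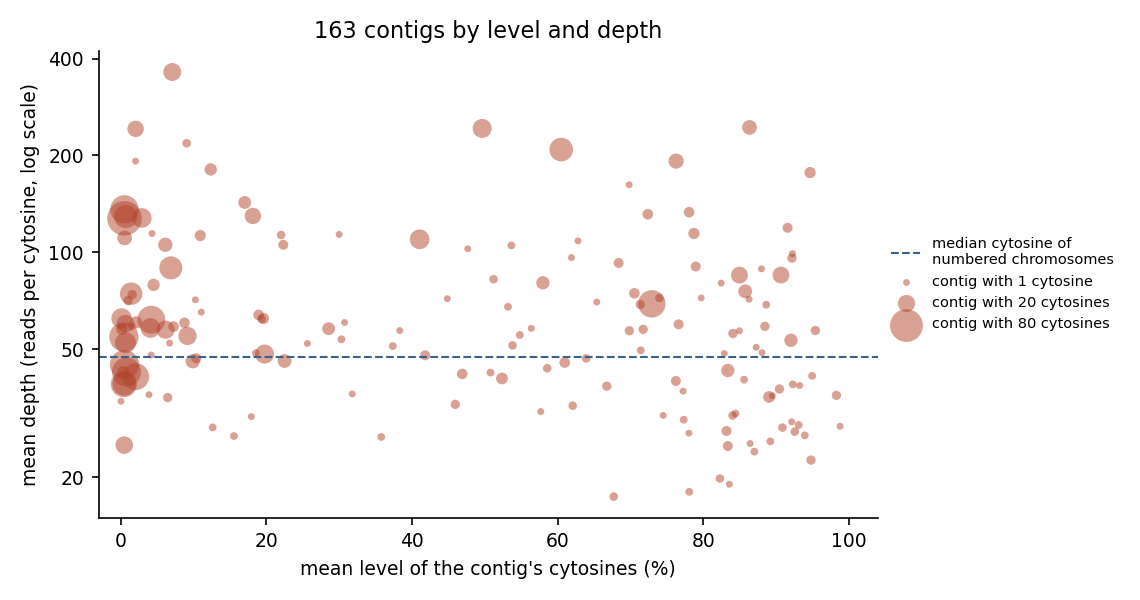
Mean methylation level (%, x axis) and mean depth (reads per cytosine over 23 animals, log-scale y axis) of the 163 AHZW contigs with covered cytosines. Point area grows with the number of covered cytosines, and the dashed line marks the median cytosine of the numbered chromosomes (47.4 reads). The 5 contigs with the most cytosines lie near 0%, and small contigs spread over all levels. Some large contigs lie higher, such as AHZW01182009.1 (55 cytosines, 72.9%) and AHZW01180988.1 (40 cytosines, 60.5%).

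The 5 contigs with the most covered cytosines were almost unmethylated in all animals. AHZW01184330.1 held 89 of them between positions 146 and 1082, with a mean level of 0.545% and a mean depth of 127 reads (37.8 to 210 reads over the animals). Its level lay between 0.189% and 1.79% in the 23 animals. AHZW01184824.1 (63 cytosines, positions 890 to 1383) had a level of 0.554% and AHZW01186318.1 (63 cytosines, positions 436 to 1075) one of 0.461%. AHZW01185206.1 (62 cytosines, positions 833 to 1274) had 0.818%, and AHZW01184986.1 (59 cytosines, positions 29 to 332) had 0.538%. No animal exceeded 2.65% on any of them. Their depths differed, with means of 44.7, 54.5 and 42.4 reads on AHZW01184824.1, AHZW01186318.1 and AHZW01185206.1, near the median of the numbered chromosomes, and 136 reads on AHZW01184986.1.

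The 3 deepest contigs with at least 10 covered cytosines had unlike levels. AHZW01185222.1 (22 cytosines, positions 36 to 611) averaged 363 reads, 7.67 times the median of the numbered chromosomes. Its depth came mainly from 2 neighbouring cytosines at positions 260 and 263, with 2790 reads in the mean and levels under 1%. The 12 cytosines at positions 36 to 121 of the same contig had 61.1 reads and a level of 0.44%, and those at 576 and 611 had 453 reads and a level of 62%. A deep unmethylated stretch and a deep methylated one thus stood within 1 short contig. AHZW01180863.1 (14 cytosines, positions 362 to 828) averaged 244 reads and 86.4%. Its first 4 cytosines, at positions 362 to 431, had 762 reads, with levels from 20.8% to 94.3%, and the 3 cytosines at positions 558 to 594 had 55 reads and 96.3%. The depth of this contig varied strongly, from 76.4 to 883 reads, both extremes being “Attacker” animals.

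AHZW01183234.1, with 25 cytosines between positions 377 and 2521, averaged 243 reads and was also the contig nearest to 50%, at 49.6%. Its stretches differed in level. The cytosines at positions 377 and 401 had 53.5%, those at 428 and 429 had 60.6%, and those at 466 and 467 had 82.5%. In contrast, 4 cytosines at positions 518 to 590 had 31.6% and 12 at positions 735 to 976 had 38.2%, and the last pair, at 2520 and 2521, had 94.2% and 93.6%. Positions that follow each other directly are the 2 strands of 1 CpG, and their levels lay close together here. Over the 12 cytosines at positions 735 to 976, the level was 22.2%, 41.9% and 77.3% in “Attacker” (lowest, median and highest), 20.7%, 35.4% and 50.5% in “Parental”, 27.4%, 37.2% and 40.7% in “Father” and 15.9%, 32.5% and 50.2% in “Mother”. The groups overlapped, and the animals spread widely, unlike at position 2520, where they lay between 87.6% and 98.3%. In depth, this contig was the steadiest of those with at least 10 covered cytosines, with a coefficient of variation within groups of 16.5%.

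The other contigs near 50% were AHZW01177679.1 and AHZW01185598.1. On AHZW01177679.1 (11 cytosines, positions 1761 to 2650, 80.4 reads), the mean level over animals was 64.9% ± 8.37 in “Attacker” (n = 6), 58.2% ± 8.73 in “Parental” (n = 6), 50.6% ± 6.6 in “Father” (n = 5) and 53.6% ± 3.35 in “Mother” (n = 6). The ranges overlapped, with 50.2% to 73.2% in “Attacker” and 47.1% to 62.4% in “Father”. On AHZW01185598.1 (27 cytosines, positions 130 to 942, 110 reads), the levels were 44.5% ± 8.25, 45.7% ± 5.38, 41.5% ± 5.84 and 31.5% ± 7.34 in the same order. The highest “Mother” reached 37.4%, above the lowest “Father” at 34%. The most methylated contigs with at least 10 covered cytosines were AHZW01185268.1 (11 cytosines, positions 294 to 350, 92%), AHZW01183528.1 (19 cytosines, positions 431 to 892, 90.7%) and AHZW01180863.1. On AHZW01183528.1 all 23 animals lay between 84.2% and 98%. On AHZW01185268.1 the depth ran from 0 to 137 reads, both extremes in “Father”, where 1 animal had no reads and 4 of 5 gave a level.

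Animals differed more at contig cytosines than at cytosines elsewhere. The SD between animals within groups had a median of 5.11 points on contigs and 2.4 on numbered chromosomes. Within the classes this was not uniform. The medians were 2.19 points on contigs against 1.74 under 20%, 23.3 against 27.9 at 20 to 80%, and 12.2 against 14.5 over 80%, so that contig cytosines of the upper classes varied less. At 244 contig cytosines (14.9%) on 96 contigs, some animal had a level under 20% and another one over 80%, against 8.16% on numbered chromosomes. Among cytosines with a mean of 20 to 80%, this held for 166 of 269 (61.7%) on contigs and for 74.4% on numbered chromosomes. Levels of 20 to 80% in every animal with at least 10 reads were found at 4 contig cytosines on 4 contigs, 1.49% of the class, against 0.532%. In 771 contig cytosines (47.1%) every such animal was under 20% (65.1% on numbered chromosomes), and in 37 (2.26%) every such animal was over 80% (0.387%). These shares are descriptions without a test.

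Both strands of a CpG gave like levels in most pairs. Of 408 such pairs on contigs, the median difference was 0.837 points, and 4 pairs (0.98%) differed by more than 20 points, against medians of 0.619 points and 0.16% on numbered chromosomes. Among the 46 contig pairs at 20 to 80% the median difference was 7.16 points, against 5.72 on numbered chromosomes. In that class 8.7% of the contig pairs differed by more than 20 points, against 3.79%. The reads of a contig also varied between animals. The coefficient of variation of its normalised read count within groups had a median of 58.2%, against 47% for 5000 bp windows of numbered chromosomes. It was 35.6% for contigs under 20% methylated, 61.1% for those at 20 to 80% and 72.1% for those over 80%. On 52 contigs (31.9%) at least 1 animal had no reads, against 27.8% of the windows.

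The mean level of an animal on contigs followed its level elsewhere. Over the 23 animals it correlated with the level on numbered chromosomes (Pearson r = 0.9, Spearman rho = 0.877; permutation tests with 10000 resamples, both p = 1.0e-04, the smallest they can give; r = 0.86 without the 2 animals farthest from the median). It correlated negatively with the median depth of the numbered chromosomes (r = -0.725, permutation p = 2.0e-04, and rho = -0.704, p = 5.0e-04; r = -0.687 without 2 animals). Centred on the group means, the coefficients were r = 0.905 (p = 1.0e-04) and r = -0.75 (p = 1.0e-04). The 4 relations had Benjamini-Hochberg adjusted p-values of at most 2.0e-04. Animals with a low median depth on numbered chromosomes thus tended to have the higher contig levels, such as “Attacker” 6 with 25 reads and 29.3%. Its library was not the smallest, with 69247936 calls against 64896224 in “Attacker” 5. “Mother” 3, with a median of 34 reads, had a contig level of only 22.3%. The part of depth in differences between animals was not tested.

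Between the groups, the mean contig level was 25.5% ± 3.35 in “Attacker” (n = 6), 24.9% ± 1.61 in “Parental” (n = 6), 24.5% ± 1.65 in “Father” (n = 5) and 23.7% ± 0.847 in “Mother” (n = 6). The differences were 0.526 points for “Attacker” vs “Parental”, 0.963 for “Attacker” vs “Father”, 0.437 for “Parental” vs “Father” and 0.85 for “Father” vs “Mother”. None passed the threshold of 0.05 (exact permutation tests, two-sided, p = 0.734, 0.545, 0.636 and 0.312 in that order, each 0.734 after Benjamini-Hochberg adjustment over 4). The comparisons share groups and are not independent of each other. Without “Attacker” 6 the first difference was -0.236 points and without “Attacker” 5 it was -0.164, and without “Father” 1 the third was -0.0465.

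Single cytosines were compared with a beta-binomial Wald test built after that of the DSS package, which takes account of both the reads of each animal and the spread between animals. A differentially methylated cytosine (DMC) had a Benjamini-Hochberg adjusted p-value under 0.05 over all 1075736 cytosines and a difference over 15 points. In “Attacker” vs “Parental”, 1 of 1637 contig cytosines was a DMC, and 0.00976% of all cytosines were. No contig cytosine was a DMC in “Attacker” vs “Father” (0.0115% of all) or in “Parental” vs “Father” (0.0122% of all). In “Father” vs “Mother”, 3 contig cytosines on 2 contigs were DMCs, against 0.0488% of all cytosines. All 3 were higher in “Father”, as were 175 of the 525 DMCs over all cytosines (33.3%). Counts this small rest on few contigs. With limma on arcsine-transformed levels, none of the contig cytosines was called in any comparison. The share that limma called over all cytosines is not given here, so that nothing is concluded from this about the contigs. At an unadjusted p-value under 0.05 with the same difference, 21 contig cytosines on 19 contigs (1.28%) passed in “Attacker” vs “Parental”, where 0.771% of all cytosines did. In “Attacker” vs “Father” 28 passed (1.71%, all cytosines 0.82%), in “Parental” vs “Father” 33 (2.02%, all cytosines 0.81%) and in “Father” vs “Mother” 33 (2.02%, all cytosines 1.05%). Of these, 13 of 21, 23 of 28, 20 of 33 and 20 of 33 were higher in the group named first, while 58.7%, 57.8%, 50.1% and 46.8% of all cytosines that passed were.

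The DMC of “Attacker” vs “Parental” stood at position 797 of AHZW01184913.1. The “Attacker” animals with reads had levels of 100%, 100%, 77.3%, 100% and 63.7%, the first 4 from 12 to 28 reads and the last, “Attacker” 6, with 86 methylated reads, more than all others together, and 1 animal had no reads. The “Parental” animals had 0%, 0%, 0%, 22.6%, 29.6% and 19%, from 11 to 63 reads. All “Attacker” values were above all “Parental” values, with a fitted difference of 74.2 ± 15.7 points (SE; beta-binomial Wald test, adjusted p = 0.0289). The lowest, median and highest levels were 0%, 100% and 100% in both “Father” and “Mother”, so that these groups held both extremes. The other 4 covered cytosines of the contig, at positions 724 to 776, were mostly methylated in both groups, between 83% and 100% in the group means, and had differences of -5.97 to 11 points (adjusted p = 1 each). The number of reads on this contig varied between animals with a coefficient of variation of 136%. With 20 reads in place of 10 in the coverage rule, the contig cytosines gave no DMC in this comparison. Position 797 was then left out before testing, because too few “Father” animals reached 20 reads there (23, 5, 16, 27 and 10 reads). That setting therefore says nothing about the difference at this position. Without “Attacker” 1, “Attacker” 2, “Attacker” 5 or “Parental” 2, no contig cytosine was called in this comparison.

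**Figure D5:**
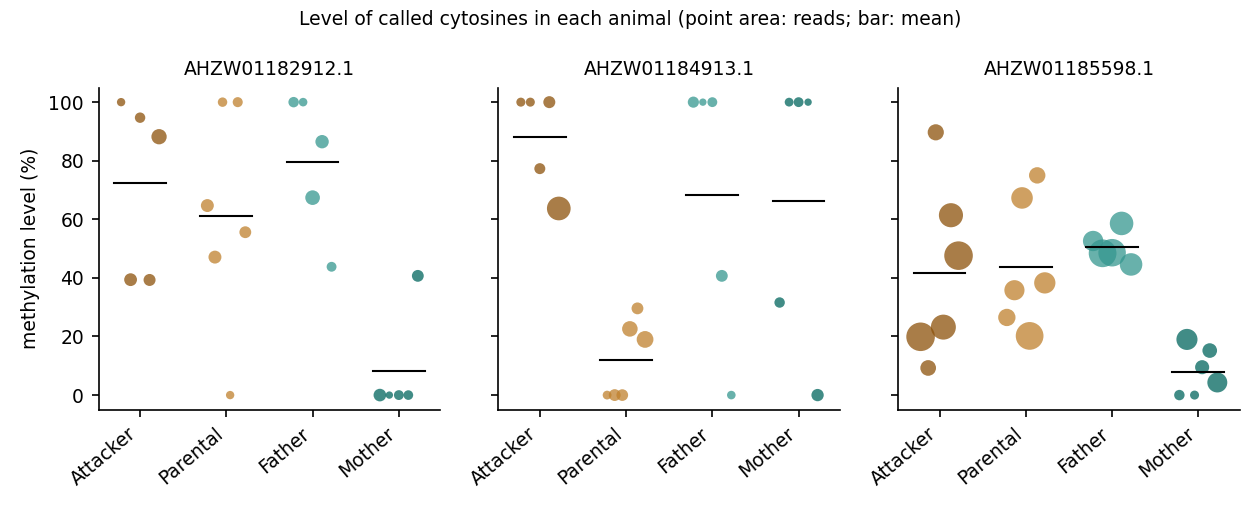
Methylation level (%) in each animal with reads at the DMC of AHZW01184913.1 (position 797), at the first DMC of AHZW01182912.1 (position 2448) and at the DMC of AHZW01185598.1 (position 472), by group. Point area grows with the reads up to 200 and bars mark group means. On AHZW01185598.1 the “Father” points lie between 44.6% and 58.6% and the “Mother” points between 0% and 19%.

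In “Father” vs “Mother”, the cytosine with the smallest p-value stood at position 472 of AHZW01185598.1, a contig described above. “Father” animals had 52.6%, 48.4%, 48.6%, 58.6% and 44.6%, from 97 to 188 reads. “Mother” animals had 0%, 19%, 0%, 9.52%, 15.2% and 4.3%, from 12 to 105 reads. The groups did not overlap, and the fitted difference was 41.4 ± 6.13 points (SE; beta-binomial Wald test, adjusted p = 3.16e-07). “Attacker” and “Parental” males spread over 9.26% to 89.7% and 20.2% to 75%. Both ranges held that of “Father”, and every “Parental” animal was above the highest “Mother” animal. The cytosine on the other strand of this CpG, at position 471, had mean levels of 25.7% in “Father” and 1.19% in “Mother”, a difference of 24.3 points in the same direction that did not pass (adjusted p = 0.191). Other cytosines of the contig went the opposite way, such as position 725 with 8.88% in “Father” and 45.4% in “Mother” (-36.1 points, adjusted p = 1). The contig was also read less in “Mother”, with 13.4, 54.6 and 105 reads per cytosine (lowest, median and highest), against a median of 154 and a highest value of 185 in “Father”, and the groups overlapped in 1 animal each. Its normalised read count differed by a log2 value of 1.19 ± 0.36 (Father minus Mother; edgeR's quasi-likelihood test, adjusted p = 1), and the part of this in the level was not tested.

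The other 2 DMCs of “Father” vs “Mother” stood 32 bp apart at positions 2448 and 2480 of AHZW01182912.1. They share their reads: 18 of 23 animals had the same numbers of reads and of methylated reads at both, so that they are not 2 independent observations. At position 2448, “Father” animals had 100%, 100%, 67.4%, 86.5% and 43.8%, from 10 to 46 reads. In “Mother”, 4 of the 5 animals with reads had 0%, from 1 to 32 reads, and the fifth had 40.7%. The lowest “Father” animal stood just above the highest “Mother” animal, and the fitted difference was 68.6 ± 14 points at either position (SE; beta-binomial Wald test, adjusted p = 0.00434). The “Attacker” and “Parental” males had levels of 39.3% to 100% and of 0% to 100%. The next covered cytosines of the contig, at positions 2634 and 2638, were methylated in both groups, at 93% and 88.6% in “Father” and 83% and 76.2% in “Mother” (adjusted p = 1 each).

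Depth was compared between groups on the reads summed over the covered cytosines of each contig, beside 5000 bp windows of all other sequences. edgeR's quasi-likelihood test called no contig in any of the 4 comparisons at an adjusted p-value under 0.05. Of all 61591 features, the test called 0% in each comparison of males and 0.0244% in that of “Father” vs “Mother”. At an unadjusted p-value under 0.05, 3, 3, 1 and 8 of 163 contigs passed in the order of the comparisons (1.84%, 1.84%, 0.613% and 4.91%). Of all features, 1.98%, 1.96%, 1.09% and 2% passed. DESeq2 called no contig, and 0, 3, 0 and 68 of all features. The median log2 difference over contigs was 0.0682, 0.155, 0.0635 and 0.116, against 0.0352, 0.0261, -0.00598 and 0.0212 over all features. The windows of chromosome X, of which males carry 1 copy, were a control with a known difference in dose. They had a median log2 difference (Father minus Mother) of -0.413, and 17.6% of them passed at an unadjusted p-value under 0.05. At the adjusted threshold the test called 1 of 618, which was higher in “Father”, opposite to the median. The test thus missed the known difference at this threshold, so that the lack of called contigs does not show equal depth. Since no contig was called deeper in “Mother”, the intended comparison of levels of 20 to 60% on such contigs had no contigs to be made on.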

How the data were processed

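RRBS libraries were made from DG punches of 23 animals, 1 library per animal. The authors trimmed single-end reads with Trim Galore, aligned them to MicOch1.0 with Bismark, which uses bowtie2, and extracted the calls at CpGs. The authors deposited, per animal, counts of all reads and of methylated reads at each cytosine, in the format that DSS reads. The files were used as deposited, and no column was left unused.

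Cytosines were kept where 4 or more animals of every group had 10 or more reads. The methylation level is methylated reads over reads, in percent. Levels on contigs and numbered chromosomes were compared within animals by sign-flip permutation tests (100000 resamples), depth only as a description, and mean levels between groups by exact permutation tests. Single cytosines were tested with a beta-binomial Wald test without smoothing, re-implemented after DSS in Python 3.11.15 (numpy 2.4.6, scipy 1.17.1, numba 0.67.0), and with limma 3.58.1 on arcsine-transformed levels. Reads summed per contig or 5000 bp window were tested with edgeR 4.0.16 and, as an alternative, DESeq2 1.42.0 in R 4.3.3. P-values were adjusted by Benjamini-Hochberg over all features, and 0.05 was the threshold. Only the beta-binomial Wald test and edgeR's test were checked on simulated data. These simulations used a fixed spread between animals, so that they do not show how the tests behave at the spread of these data. Limma, DESeq2 and the permutation tests were not checked in this way.

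The named contigs were the 5 with the most covered cytosines and, among contigs with at least 10, the 3 deepest, the 3 with the highest level and the 3 nearest to 50%. Named cytosines were the 3 with the smallest p-value among those called in each comparison, and contigs called in depth would have been named likewise. Stretches within the deepest contigs and the neighbours of called cytosines were chosen after their values were seen. The members and lists were chosen with earlier results of these data known. Replicate numbers were not used to pair the animals in the main tests. Sequences and gene annotation of the contigs were not used here, and reads are not independent molecules.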

Additional observations from a re-analysis of the deposited data

Results flagged for a closer look

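In 12 of 140 groups of values, 1 animal stood apart from the rest of its group by Dixon's test at the 95% level, which chance gives in about 1 of 20 groups. The log2 ratio of contig to numbered depth was 0 in “Mother” 2, while the other “Mother” animals had 0.222 to 0.305.

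On the almost unmethylated contigs, the level of AHZW01184330.1 was 1.79% in “Father” 2 (others 0.195% to 0.488%) and 1.24% in “Mother” 1 (others 0.27% to 0.575%). AHZW01184824.1 had 2.65% in “Mother” 2 (others 0.276% to 0.936%), and AHZW01184986.1 had 0.696% in “Parental” 3 (others 0.264% to 0.395%).

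AHZW01185222.1 had a level of 9.85% in “Attacker” 5 (others 5.61% to 7.12%) and of 14.5% in “Parental” 6 (others 5.71% to 8.88%), and a depth of 555 reads in “Attacker” 3 (others 226 to 317). AHZW01183234.1 had a depth of 391 reads in “Father” 1 (others 216 to 266), and AHZW01177679.1 had a level of 62.4% in “Father” 3 (others 47.1% to 48.4%). At positions 2448 and 2480 of AHZW01182912.1, which share reads, “Mother” 5 had 40.7% and the others 0%.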

How the results depend on the processing

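Of 81 results under other settings, 69 kept their direction and their side of the threshold or their count. With a looser rule of 5 reads in 3 animals of every group, the log2 depth ratio was 0.0542. As pooled reads, “Parental” vs “Father” turned to -0.333 points. The unadjusted p-value gave 21, 28, 33 and 33 contig DMCs in the 4 comparisons in the order of the report. At least 20 reads gave 0 in “Attacker” vs “Parental” and 1 in “Father” vs “Mother”. This setting left out the DMCs of AHZW01184913.1 and AHZW01182912.1 before testing, as too few “Father” animals had 20 reads there. At both positions of AHZW01182912.1 these animals had 19, 10, 46, 37 and 16 reads. Limma on arcsine levels gave 0 in both comparisons. The cause of the other changes was not tested.

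Leaving out 1 animal at a time gave log2 depth ratios of 0.273 to 0.299, level differences of 17.1 to 17.4 points, and share differences of -21.5 to -21.2, 8.13 to 8.31 and 12.9 to 13.2 points. The mean level differences ran from -0.236 to 1.5 for “Attacker” vs “Parental” (-0.164 without “Attacker” 5, -0.236 without “Attacker” 6), from 0.2 to 1.93 for “Attacker” vs “Father”, from -0.0465 (without “Father” 1) to 1 for “Parental” vs “Father” and from 0.285 to 1.33 for “Father” vs “Mother”. Contig DMCs in “Attacker” vs “Parental” ranged from 0 (without “Attacker” 1, 2 or 5 or “Parental” 2) to 2 (without “Parental” 5). They ranged from 0 to 1 in “Attacker” vs “Father” (1 without “Attacker” 5 or “Father” 5) and in “Parental” vs “Father” (1 without “Parental” 6 or “Father” 5). In “Father” vs “Mother” they ranged from 1 (without “Father” 4 or “Mother” 1) to 7 (without “Mother” 3), with 5 without “Father” 5. Contigs called in depth stayed at 0.

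Over single cytosines, same-numbered animals of different groups were hardly alike: 33 pairs had a median correlation of 0.0128 (-0.226 to 0.464), against 0.00181 in other pairs. The animals' means did differ with the number in the males. The contig level was 20.6% in “Attacker” 1 and 29.3% in “Attacker” 6, 22.4% and 26.4% in “Parental” 1 and 6, and 22.6% and 25.5% in “Father” 1 and 5. The median depths of numbered chromosomes were 65 and 25, 45 and 34, and 78 and 34 reads. What the numbers stand for was not tested. With the replicate block the mean level differences were 0.526, 0.2, 0.154 and 0.988 points (exact permutation p = 0.531, 0.812, 0.75 and 0.188). Under this block limma gave 0 contig DMCs in each comparison and edgeR called 0 contigs. The shares that both called over all features under the block are not given here, so that nothing is concluded from these counts. The JH scaffolds and linkage groups as reference were chosen after seeing the data. The share at 20 to 60% on contigs deeper in “Mother”, with its alternatives, was not run, as no contig was called. Some animals had few reads or none at the called sites of AHZW01184913.1 and AHZW01182912.1, whereas position 472 of AHZW01185598.1 had reads in all 23 animals (12 to 353).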

Other observations

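A single contig cytosine, at position 2433 of AHZW01182481.1, met the coverage rule in the 3 male groups and had no reads in any “Mother” animal, among 1724 contig cytosines covered in those 3 groups. The male animals had 33.5 reads in the mean (0 to 70) and a level of 93.3%. The like count was 13 of 620232 on numbered chromosomes, 9 of 295551 on JH scaffolds and 3 of 188103 on linkage groups. The reverse, coverage in “Mother” with no reads in males, was found at 0 of 2274 contig cytosines covered in “Mother” and at 19 of 811599 on numbered chromosomes. With 1 cytosine on contigs, nothing is read from the difference.

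Among contigs with at least 10 covered cytosines, chosen here after their values were seen, AHZW01184798.1 varied most in reads between animals of a group, with a coefficient of variation of 95.5%, and had a mean level of 85%. AHZW01183234.1 varied least, with 16.5%. These are values without a test.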
